A study of Danio rerio with 16 samples.

Results

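The genes described here are the keratins, claudins, desmosome proteins and related junction proteins of the zebrafish embryo, taken here to follow its surface epithelium. Not all of them need be restricted to that tissue, and where each is expressed was not measured. They were chosen by name: identifiers whose symbol begins with krt, cldn, pkp1 to pkp4, dsc, jup, evpl, ppl, epcam, tjp or ocln, or is dsp or cdh1, kept if they reached 1 RPKM in at least 2 of the 16 libraries. RPKM is the number of reads on a gene scaled to its length in kilobases and to the depth of its library, a level per length. Of 77 identifiers that matched the names, 54 passed that filter, among 14758 of 27257 identifiers that passed it overall. The 54 comprise 12 keratins, 20 claudins, 10 desmosome genes and 8 other junction genes (epcam, oclna, oclnb and 5 identifiers of the tjp family). The remaining 4 match in name and were counted outside these families: dscc1, krtcap2, krt222 (keratin-like) and cldnd1 (a claudin domain protein). The 23 identifiers below the filter include krt15, krt94, krt95, krt98, pkp1a and cldn7a, and the highest value among them was 1.08 RPKM (krt94). Levels of 42 of the 54 were at 1 RPKM or more in every library, and no member passed the filter through a single group of stage and genotype. Krt18b and cldn10 (2 members) reached 1 RPKM at 6-somites only, and krt93 (1 member) in Gata5 morphants only, so the filter kept them through the libraries where they are high. Their calls between stages or against WT support nothing. Cldn3c reached 1 RPKM at bud in Gata5 bud 2 only (1.32 RPKM), so the filter kept it through 6-somites libraries. Its calls between stages likewise support nothing. Krt1-19e reached 1 RPKM only in WT bud 2, Gata5/6 bud 2 and Gata5/6 6-somites 1. The filter therefore kept it through Gata5/6 libraries, and its calls in Gata5/6 morphants against WT support nothing. Values for cdh1 and ppl are not analysed here.

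The embryos were Gata5 morphants, Gata6 morphants, Gata5/6 morphants and WT embryos, each taken at the bud stage (the end of gastrulation) and at 6-somites. Morphants are embryos in which a morpholino antisense oligonucleotide lowers a gene's product. Each group holds 2 libraries of polyA RNA from whole embryos, and each library pools 40 embryos, so a level averages over all tissues of the embryo. Neither the morpholino sequences and doses nor the strain and any injected control are stated in the labels, which also do not say whether the libraries of a group came from separate clutches. The p-values measure the spread between these pools.

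The zebrafish gastrula is covered by the enveloping layer, a single sheet of flattened cells that becomes the periderm, with the future basal epidermis beneath it. Keratins form the intermediate filaments of these cells, desmosomes anchor the filaments at cell contacts, and claudins and occludins seal the paracellular space at tight junctions with tjp proteins as their scaffold. Gata5 and Gata6 are transcription factors best known for endoderm and heart formation. In RNA from whole embryos, fewer cells of a type and less RNA per cell cannot be told apart.

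Library depth, worked back from the RPKM values, lay between 19671892 and 30807456 reads. Stage was the main axis of variation across all genes (the first principal component, 50.45% of variance, separated bud from 6-somites). WT bud 2 and Gata6 bud 1 stood at the outer and inner end of the bud libraries on that axis. Replicates differed more at bud, with a standard deviation of the log2 difference of 0.341 to 0.475, than at 6-somites, with 0.183 to 0.228. The limma fit shares one spread over both stages, so at bud its adjusted p-values come out too low, and at 6-somites too high, and members whose call against WT changes in a fit of each stage alone are named. The gata5 transcript, target of one morpholino, stood at 114.0 and 106.0 RPKM in Gata5 morphants against 46.3 and 52.9 RPKM in WT at bud. At 6-somites it stood at 97.0 and 91.0 RPKM in Gata5 morphants against 27.0 and 32.3 RPKM in WT. The targeted transcript was therefore higher, not lower, in the libraries labelled Gata5 morphant. Levels of gata6 are not analysed here.

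Keratins made up most of the measured RNA of these families. They held 83.0% to 87.0% of the members' summed RPKM, and the 54 members together held 1.29% to 1.81% of the RPKM summed over all genes. The most abundant was krt4 (ENSDARG00000017624), a keratin of the zebrafish enveloping layer, with a mean over the 16 libraries of 1528 RPKM and a range of 1051 to 1979 RPKM. Next came krt8 (ENSDARG00000058358), a type II keratin of simple epithelia, with a mean of 892.7 RPKM. Krt5 followed with 633.3 RPKM and krt18a.1, a type I keratin, with 602.4 RPKM. Krt4, krt8 and krt18a.1 together held 59.9% to 65.5% of the keratin sum in each library. At the other end, krt93 did not exceed 1.59 RPKM and krt18b did not exceed 1.55 RPKM.

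The most abundant claudin was cldne, at 78.5 to 138 RPKM, followed by cldnb at 38.5 to 82.6 RPKM and cldn7b at 40.5 to 69.3 RPKM. Epcam, a surface adhesion protein of epithelia, lay between 76.3 and 135 RPKM. Among desmosome genes the desmoplakin identifier ENSDARG00000022309 was highest, at 67.4 to 118 RPKM. A second desmoplakin identifier, ENSDARG00000076673, lay at 6.38 to 11.5 RPKM. Plakophilin pkp1 (29.6 to 51.2 RPKM) and plakoglobin jup (27.6 to 36.0 RPKM), which link cadherin tails to desmoplakin, came next.

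Summed by family, keratins did not separate the morphants from WT beyond the spread between libraries at bud. The keratin sum was 3883 and 4707 RPKM in Gata5 morphants, 5566 and 4427 RPKM in Gata6 morphants, 4637 and 3922 RPKM in Gata5/6 morphants, and 5509 and 4149 RPKM in WT. At 6-somites it was 5052 and 5047 RPKM in Gata5 morphants, 5020 and 5021 RPKM in Gata6 morphants, 5062 and 4904 RPKM in Gata5/6 morphants, and 5302 and 5115 RPKM in WT. All 6 morphant sums at 6-somites lay below both WT sums, by a small margin. Claudin sums at 6-somites lay at 386 to 393 RPKM in Gata5 morphants, 389 to 398 RPKM in Gata6 morphants and 407 to 419 RPKM in Gata5/6 morphants, against 422 to 429 RPKM in WT. No test was made on these sums.

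**Figure D1:**
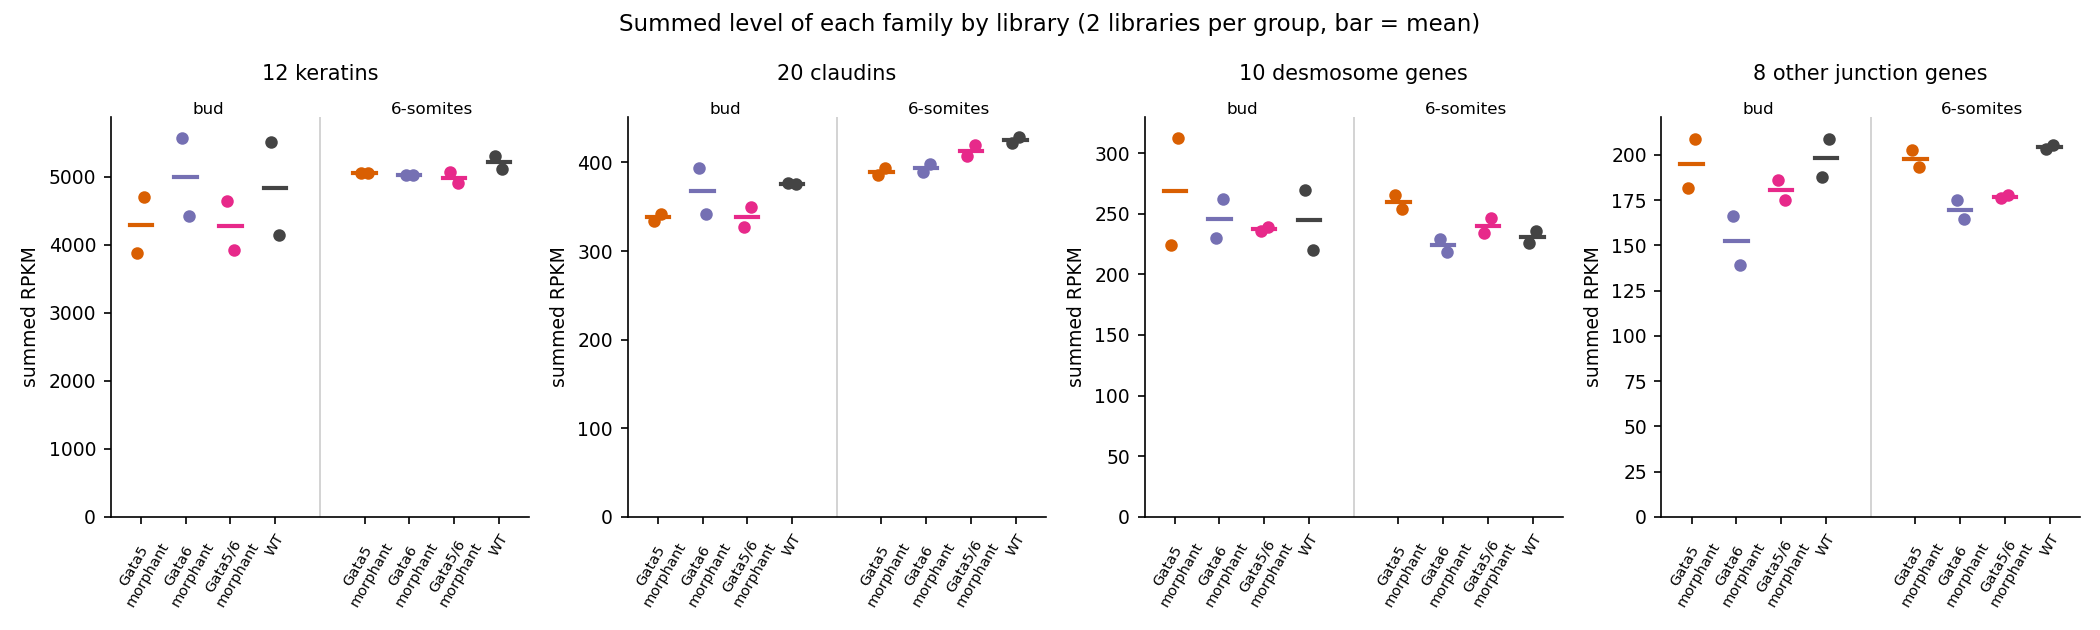
Summed RPKM of the keratins, claudins, desmosome genes and other junction genes in each library (points) with the group mean (bar), for Gata5, Gata6 and Gata5/6 morphants and WT at bud (left of the line) and 6-somites (right). Keratin sums spread widely at bud (3883 to 5566 RPKM) and little at 6-somites (4904 to 5302 RPKM).

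In WT embryos 30 of the 54 members differed between 6-somites and bud, 16 higher and 14 lower at 6-somites (limma on log2 of RPKM + 1, Benjamini-Hochberg adjusted p under 0.05 over 14751 genes), where 29.9% of all genes tested were called, 20.3% higher and 9.56% lower. Claudins moved in both directions: 13 of 20 were called, 7 higher (cldn10 and cldn3c among them) and 6 lower. Of the keratins 4 of 12 were called, 3 higher (krt18b among them) and 1 lower. Of the desmosome genes 3 of 10 were called, and of the other junction genes 7 of 8. Krt18b, cldn10 and cldn3c were kept by the filter through 6-somites libraries, so their calls support nothing. The median log2 change over the 54 members was 0.22, against 0.08 over all genes tested. The number of called members fell with the removal of any one WT library, least without WT bud 1, and so did the number over all genes.

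The highest rise among the members was that of cldni (ENSDARG00000054616), a claudin of the tight junction. It stood at 43.4 and 44.1 RPKM in WT at 6-somites, against 6.32 and 1.76 RPKM in WT at bud. Both 6-somites pools were far above both bud pools, with a log2 change of 3.32 ± 0.34 (SE, limma adjusted p 3.71e-05, 2 libraries per stage). The rise was also called in the morphants, with a log2 change of 2.54 in Gata5, 1.83 in Gata6 and 3.22 in Gata5/6 morphants.

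Claudin cldna (ENSDARG00000069888) stood at 13.5 and 14.2 RPKM in WT at 6-somites, against 3.13 and 1.08 RPKM at bud, a log2 change of 2.34 ± 0.28 (limma adjusted p 0.000111). Claudin cldn1 (ENSDARG00000040045) stood at 9.18 and 4.31 RPKM in WT at 6-somites, against 0.513 and 0.815 RPKM at bud, a log2 change of 2.15 ± 0.27. The pair at 6-somites differed by more than 2-fold and still lay above both bud pools. The mammalian CLDN1 protein is a main seal of the skin barrier.

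Claudin cldn5 (ENSDARG00000043716) stood at 51.2 and 48.4 RPKM in WT at 6-somites, against 18.8 and 13.3 RPKM at bud, a log2 change of 1.59 ± 0.17. Claudin cldn3c stood at 4.11 and 3.62 RPKM in WT at 6-somites, against 0.659 and 0.858 RPKM at bud, a log2 change of 1.47 ± 0.18. Both were called in all 4 genotypes, as were cldn11 and the plakophilin pkp3. The filter kept cldn3c through 6-somites libraries, so its calls between stages support nothing. In all, 7 members were called higher at 6-somites in every genotype (cldn3c among them). In at least 1 genotype 21 were called higher (krt18b, cldn10 and cldn3c among them). Over all genes these numbers were 1195 and 4225. Some of these calls did not hold in every removal of one library. In Gata6 morphants these were cldna, cldn1, pkp3 and cldn11, of which cldn11 held in none of 4. In Gata5/6 morphants it was cldn3c. The WT call of pkp3 was lost without WT bud 2 or WT 6-somites 1. The Gata5 call of cldn11 was lost without Gata5 bud 1 or Gata5 6-somites 2. The genotypes share no library in these comparisons.

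Other claudins fell over the same interval. Cldnd (ENSDARG00000006580), a claudin of low level, stood at 0.539 and 0.542 RPKM in WT at 6-somites, against 1.92 and 2.41 RPKM at bud, a log2 change of -1.03 ± 0.15 (limma adjusted p 0.00045). Cldne, the most abundant claudin, stood at 78.5 and 87.4 RPKM in WT at 6-somites, against 120 and 138 RPKM at bud, a log2 change of -0.63 ± 0.13. Falls were also called in WT for cldn23.1 (-0.66), cldn30 (-0.53), cldn8.2 and cldnf. Those of cldn23.1 and cldn30 were lost without WT bud 2 or WT 6-somites 1. That of cldnf was lost without WT bud 2, WT 6-somites 1 or WT 6-somites 2. The claudin sum was 422 and 429 RPKM in WT at 6-somites against 377 and 375 RPKM at bud.

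**Figure D2:**
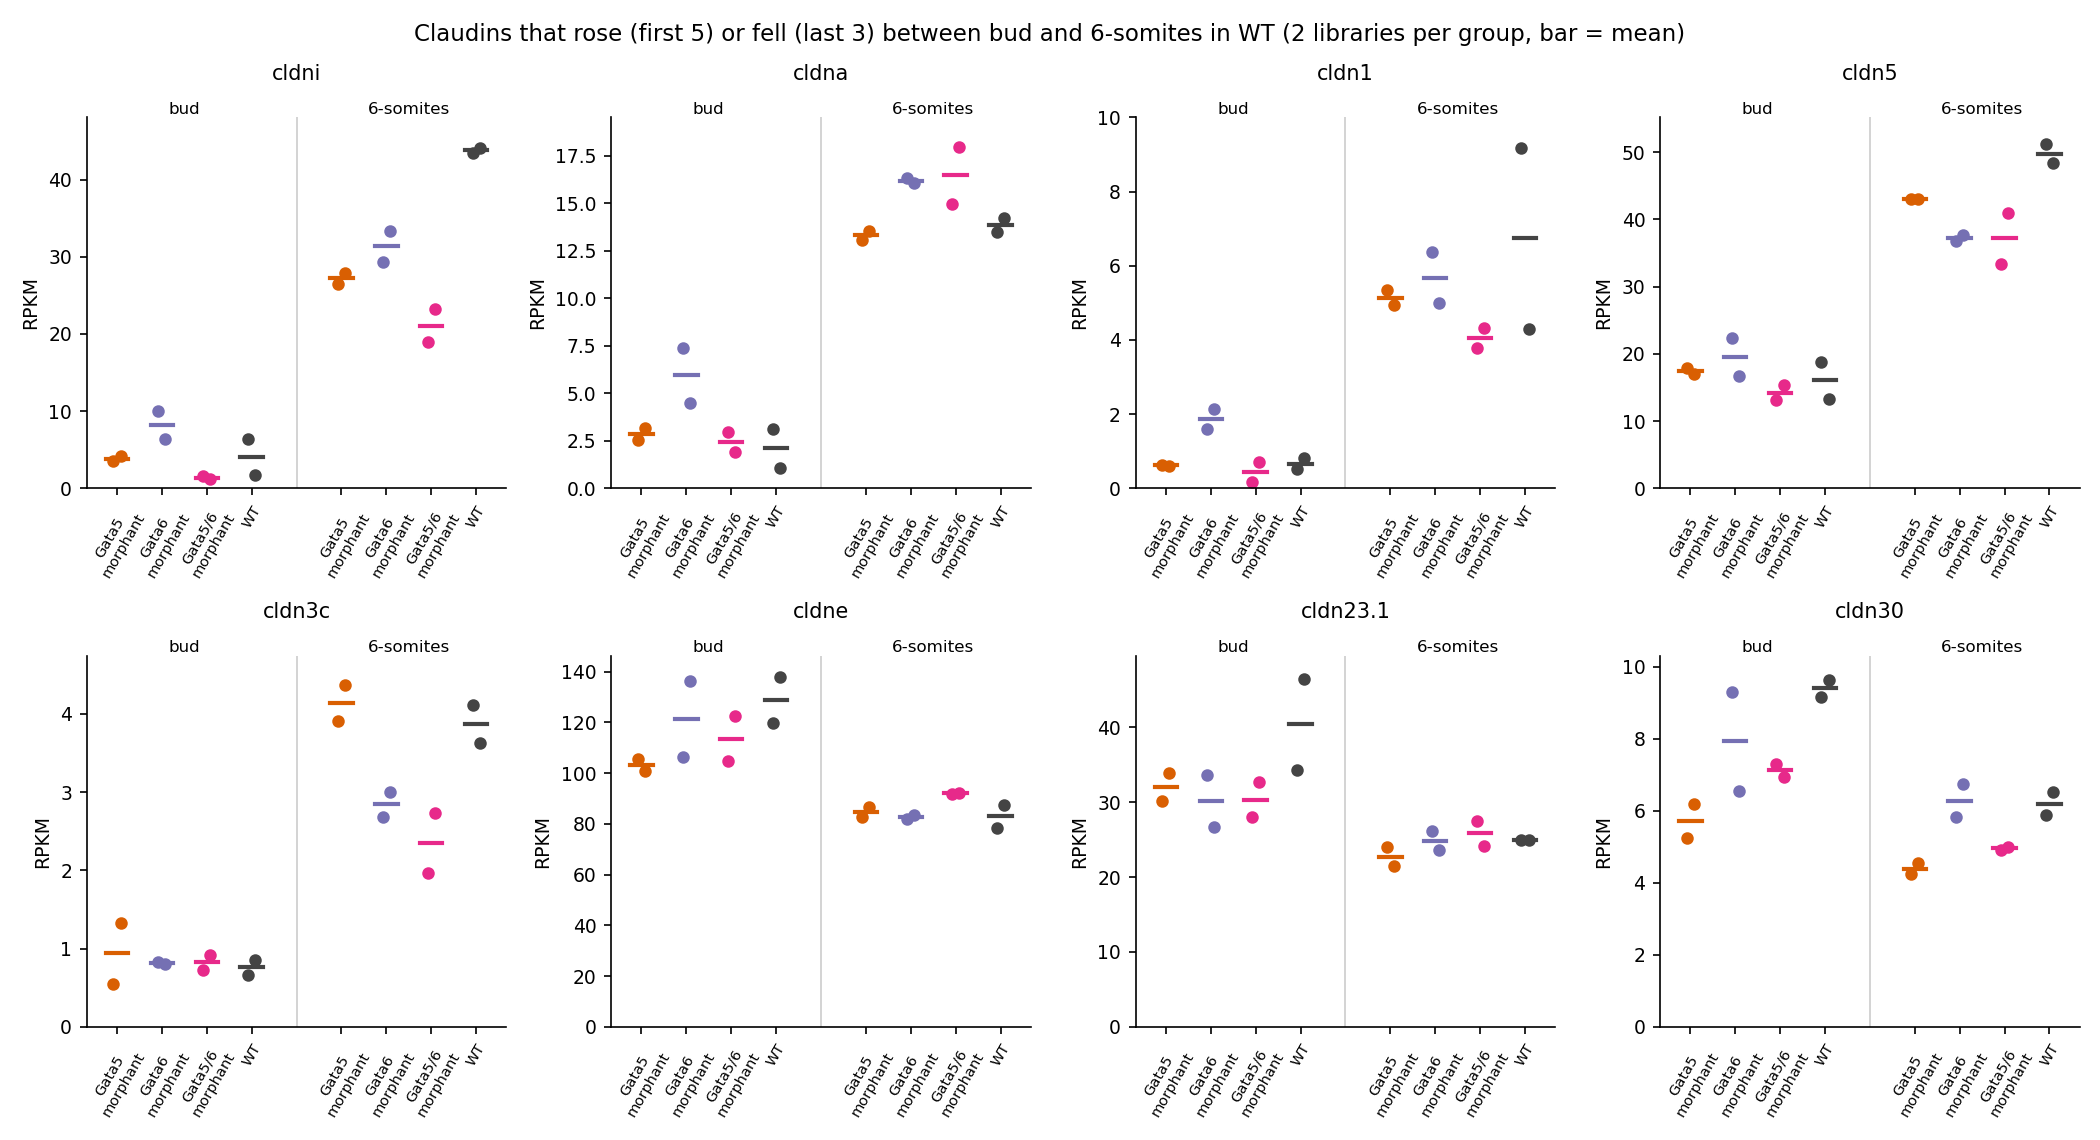
RPKM of 8 claudins in each library (points) with the group mean (bar), by genotype at bud and at 6-somites. The first 5 stood higher at 6-somites than at bud in all genotypes. Of these, cldn3c was kept by the filter through 6-somites libraries. Cldne fell to 78.5 and 87.4 RPKM in WT at 6-somites, against 120 and 138 RPKM at bud.

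Fewer keratins passed the test with stage. Krt97 (ENSDARG00000000212) fell to 127 and 129 RPKM in WT at 6-somites, against 292 and 276 RPKM at bud, a log2 change of -1.14 ± 0.16 (limma adjusted p 0.000406). It fell in each of the morphants too, by 0.69 in Gata5, 0.99 in Gata6 and 0.64 in Gata5/6 morphants on the log2 scale. The call was lost in 3 of 4 removals of one library in Gata5 morphants (adjusted p up to 0.0752) and in 2 of 4 in Gata5/6 morphants (up to 0.152). Krt91 and krt17 rose in WT, with log2 changes of 0.44 and 0.37 (limma adjusted p 0.0145 and 0.029). Both calls were lost without WT bud 2, WT 6-somites 1 or WT 6-somites 2. Krt18b, which passed the filter at 6-somites only, had a log2 change of 0.66. The 4 most abundant keratins did not pass the test in WT: krt4 had a log2 change of 0.45 (adjusted p 0.0902), krt8 of -0.29 (adjusted p 0.258), krt5 of 0.49 (adjusted p 0.141) and krt18a.1 of -0.33 (adjusted p 0.0953).

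Krt1-19e had an uneven pattern: 8.41 RPKM in WT bud 2 and 5.04 RPKM in Gata5/6 bud 2, against 0.144 RPKM in WT bud 1 and 0.193 RPKM in Gata5/6 bud 1. In the other 12 libraries it lay between 0.114 and 2.47 RPKM. No comparison of this keratin passed the limma test over all 16 libraries, and both high libraries carry the label rep 2 at bud. Its values in WT at bud therefore differed by more between replicates than between any groups.

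Among desmosome genes, pkp3a (ENSDARG00000051861), a plakophilin of the desmosomal plaque, fell to 10.96 and 11.52 RPKM in WT at 6-somites, against 24.4 and 21.3 RPKM at bud. This was a log2 change of -0.96 ± 0.10 (limma adjusted p 3.11e-05). The desmocollin dsc2l, a desmosomal cadherin, stood at 13.9 and 15.0 RPKM in WT at 6-somites against 28.7 and 20.2 RPKM at bud, a log2 change of -0.70 ± 0.24 (adjusted p 0.0436), which was lost in 3 of 4 removals of one library (without WT bud 1, WT 6-somites 1 or WT 6-somites 2, adjusted p up to 0.248). Pkp3 rose in WT (log2 change 0.69), a call lost without WT bud 2 or WT 6-somites 1. Both desmoplakin identifiers, jup, pkp1, pkp2, pkp4 and evpla (envoplakin) did not pass the test in WT.

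The scaffold genes tjp1b and tjp1 rose in WT, with log2 changes of 0.79 ± 0.20 and 0.78 ± 0.16. The tjp1b call was lost without WT bud 2 or WT 6-somites 1 (adjusted p up to 0.0972). The occludin gene oclna fell, with a log2 change of -0.45 in WT, and was called lower in all 4 genotypes. Oclnb had a log2 change of -0.53 in WT (adjusted p 0.0497), called in 3 of 11 alternatives and in none of the 4 removals of one library (adjusted p up to 0.259). Tjp3 had a log2 change of -0.36 in WT. Epcam had a log2 change of 0.01 (adjusted p 0.982). Lower at 6-somites in every genotype were 3 members (krt97, oclna and pkp3a), of 15 called lower in at least 1; over all genes these numbers were 315 and 1987. In Gata5, Gata6 and Gata5/6 morphants at least 1 removal of one library ended the oclna call (adjusted p up to 0.109 in Gata6 morphants).

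**Figure D3:**
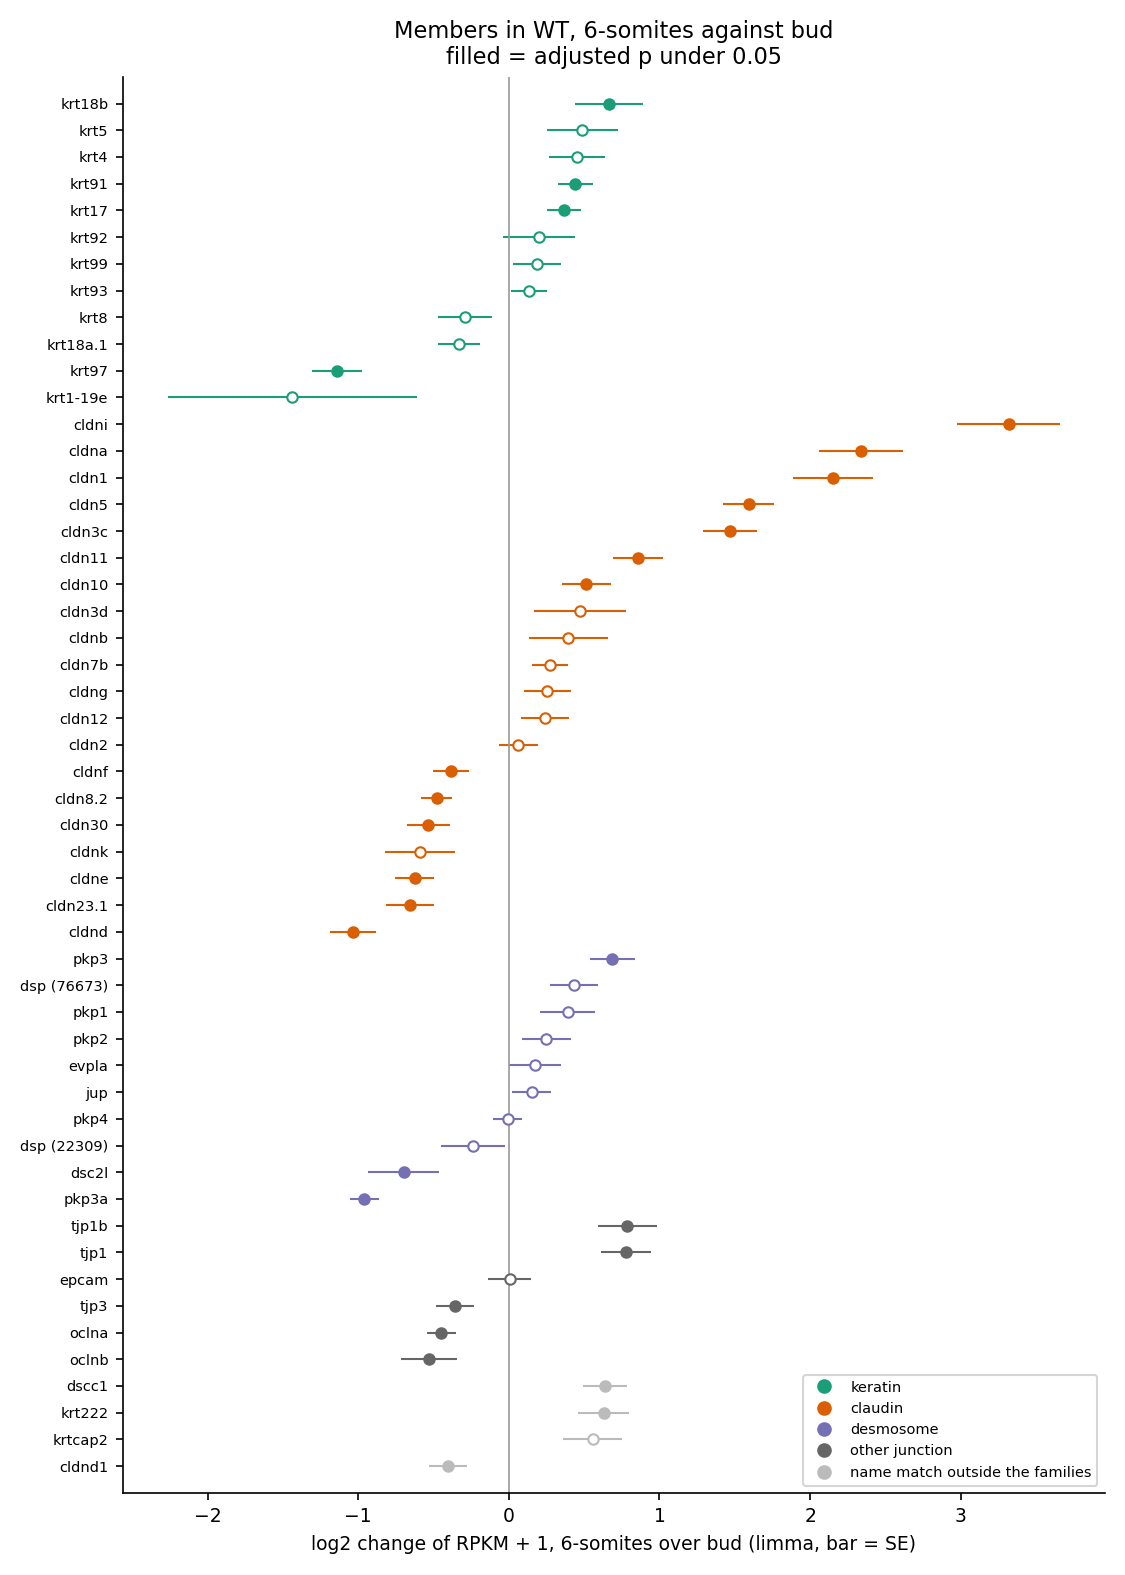
Log2 change of RPKM + 1 between 6-somites and bud in WT for the members shown, with its standard error from limma (2 libraries per stage), ordered within role; filled points have an adjusted p under 0.05. Claudins span the widest range, from cldnd at -1.03 to cldni at 3.32, while 4 of 12 keratins are filled. Points above 0 are higher at 6-somites.

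The same comparison was made in each morphant. Gata5 morphants had 20 of 54 called, 16 higher and 4 lower, where 26.9% of all genes were called, 21.0% higher and 5.84% lower. Gata6 morphants had 14 called, 7 higher and 7 lower, where 18.5% of all genes were called, 12.9% higher and 5.65% lower. Gata5/6 morphants had 22 called, 17 higher and 5 lower, where 21.3% of all genes were called, 15.5% higher and 5.82% lower. Krt18b, kept by the filter through 6-somites libraries, is among the 16 higher in Gata5 morphants, and cldn10, kept likewise, among the 17 in Gata5/6 morphants. Cldn3c, also kept through 6-somites libraries, is among the higher members in each morphant. In Gata5 and in Gata5/6 morphants the count fell with the removal of any one of their libraries, and so did the count over all genes. In Gata6 morphants both counts fell without Gata6 bud 2, Gata6 6-somites 1 or Gata6 6-somites 2. Both rose without Gata6 bud 1.

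Whether the stage change itself differed between a morphant and WT was tested as an interaction. No member was called for Gata5 (of 54, where 0.0% of all genes were called), for Gata6 (0.0203% of all genes called) or for Gata5/6 morphants (0.00678% of all genes called). At an unadjusted p under 0.05 the interaction picked out 2 members for Gata5, 5 for Gata6 and 4 for Gata5/6 morphants, and 3.09%, 7.92% and 8.72% of all genes in that order. The smallest adjusted p among the members was 1.0 for Gata5 and 0.462 for Gata6 morphants. For Gata6 morphants cldni and cldna had interaction log2 values of -1.49 ± 0.48 and -0.997 ± 0.397, with adjusted p of 0.462 and 0.565. Without WT bud 1 the Gata6 interaction called cldni, and without Gata6 bud 1 it called oclnb. In both fits more of all genes were called as well.

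Against WT of the same stage, few members passed the test, and those that did were higher in the morphant. At bud, 1 of 54 members was called in Gata5 morphants (0.359% of all genes called), 0 in Gata6 morphants (1.63% of all genes called) and 2 in Gata5/6 morphants (1.59% of all genes called). At 6-somites, 2 were called in Gata5 morphants (0.474% of all genes called), 0 in Gata6 morphants (0.339% of all genes called) and 3 in Gata5/6 morphants (3.8% of all genes called). The genes behind these counts were pkp3a, cldnd, cldn3d and cldn2. At bud the Gata5/6 count fell without WT bud 1 or Gata5/6 bud 1 and rose without Gata5/6 bud 2. The Gata5 count at bud fell without WT bud 2. The counts over all genes moved in the same direction in each of these fits. Without WT bud 2 the Gata5/6 count at bud also rose, with cldni called lower, while the count over all genes fell. At 6-somites each removal of one library left pkp3a as the only member called in Gata5 and in Gata5/6 morphants, and fewer of all genes were called. The comparisons of one stage share the WT libraries. The median log2 change over the members lay between -0.14 and 0.01 in the 6 comparisons, and that over all genes between -0.03 and 0.02.

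Pkp3a stood at 33.0 and 29.4 RPKM in Gata5 morphants at 6-somites, 11.6 and 10.8 RPKM in Gata6 morphants, and 23.9 and 22.9 RPKM in Gata5/6 morphants, against 10.96 and 11.52 RPKM in WT. Every Gata5 and Gata5/6 morphant pool lay above every WT and Gata6 morphant pool. The log2 change was 1.39 ± 0.10 in Gata5 morphants (a ratio of 2.78, limma adjusted p 5.2e-05) and 1.00 ± 0.10 in Gata5/6 morphants (a ratio of 2.09, adjusted p 0.000512). Both 6-somites calls were made in all 12 alternatives, including the removal of any one library. In Gata6 morphants it was not called (adjusted p 0.999).

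At bud pkp3a stood at 40.0 and 41.0 RPKM in Gata5 morphants, 20.2 and 19.8 RPKM in Gata6 morphants, and 35.7 and 36.9 RPKM in Gata5/6 morphants, against 24.4 and 21.3 RPKM in WT. The Gata5 and Gata5/6 pools again did not overlap with WT. The log2 change was 0.80 ± 0.10 in Gata5 morphants (a ratio of 1.77, limma adjusted p 0.00467) and 0.65 ± 0.10 in Gata5/6 morphants (a ratio of 1.59, adjusted p 0.00796). With a spread of its own for the bud stage neither was called, and the highest adjusted p over these and the other alternatives was 0.389 and 0.256. The Gata5 call was also lost without WT bud 2 (adjusted p 0.0755) and the Gata5/6 call without Gata5/6 bud 1 (adjusted p 0.0523). The values rested on 2063 to 7694 reads per library.

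The stage change of pkp3a was a fall in all 4 genotypes, of 0.37 in Gata5, 0.78 in Gata6, 0.61 in Gata5/6 morphants and 0.96 in WT on the log2 scale. The call in Gata5 morphants was lost without Gata5 bud 1, Gata5 bud 2 or Gata5 6-somites 2 (adjusted p up to 0.148). The interaction for Gata5 had a log2 value of 0.59 ± 0.14 with an unadjusted p of 0.0011 and an adjusted p of 1.0, so it was not called. For Gata5/6 morphants it was 0.35 ± 0.14, with an adjusted p of 0.494.

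Cldnd stood at 1.53 and 1.87 RPKM in Gata5 morphants at 6-somites, 0.870 and 0.750 RPKM in Gata6 morphants, and 1.65 and 1.31 RPKM in Gata5/6 morphants, against 0.539 and 0.542 RPKM in WT. No morphant pool overlapped with WT, which was so for most members in each morphant at 6-somites. The log2 change was 0.81 ± 0.15 in Gata5 morphants (a ratio of 3.15, limma adjusted p 0.0474) and 0.68 ± 0.15 in Gata5/6 morphants (a ratio of 2.74, adjusted p 0.0314). Because 1 RPKM was added before the logarithm, these log2 values understate the ratios of a gene this low. The gene was read at 12 to 78 reads per library. Each of the 4 removals of one library ended the Gata5 call (adjusted p 0.277 to 0.341) and the Gata5/6 call (adjusted p 0.0748 to 0.289).

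Cldn3d (ENSDARG00000015955) stood at 7.17 and 7.53 RPKM in Gata5/6 morphants at 6-somites, against 2.30 and 1.75 RPKM in WT. It stood at 3.48 and 2.84 RPKM in Gata5 morphants and at 3.40 and 3.49 RPKM in Gata6 morphants, between these levels. The Gata5/6 log2 change was 1.47 ± 0.30 (a ratio of 3.63, limma adjusted p 0.0214), and each removal of one library ended the call (adjusted p 0.106 to 0.151). At bud the Gata5/6 pools were far apart, at 4.64 and 1.84 RPKM, against 0.917 and 1.46 RPKM in WT. The difference was not called over the 16 libraries (limma adjusted p 0.191), and this result changed without Gata5/6 bud 2.

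Cldn2 (ENSDARG00000044387) was called in Gata5/6 morphants at bud, at 2.52 and 2.02 RPKM in Gata5/6 morphants against 0.918 and 1.34 RPKM in WT. The log2 change was 0.62 ± 0.13 (a ratio of 2.02, limma adjusted p 0.0389). The call was lost in 7 of 11 alternatives, among them a spread for the bud stage alone and the removal of WT bud 1 or Gata5/6 bud 1, and the adjusted p reached 0.43. At 6-somites it stood at 1.84 and 1.54 RPKM in Gata5/6 morphants against 1.195 and 1.231 RPKM in WT, and was not called (adjusted p 0.299).

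**Figure D4:**
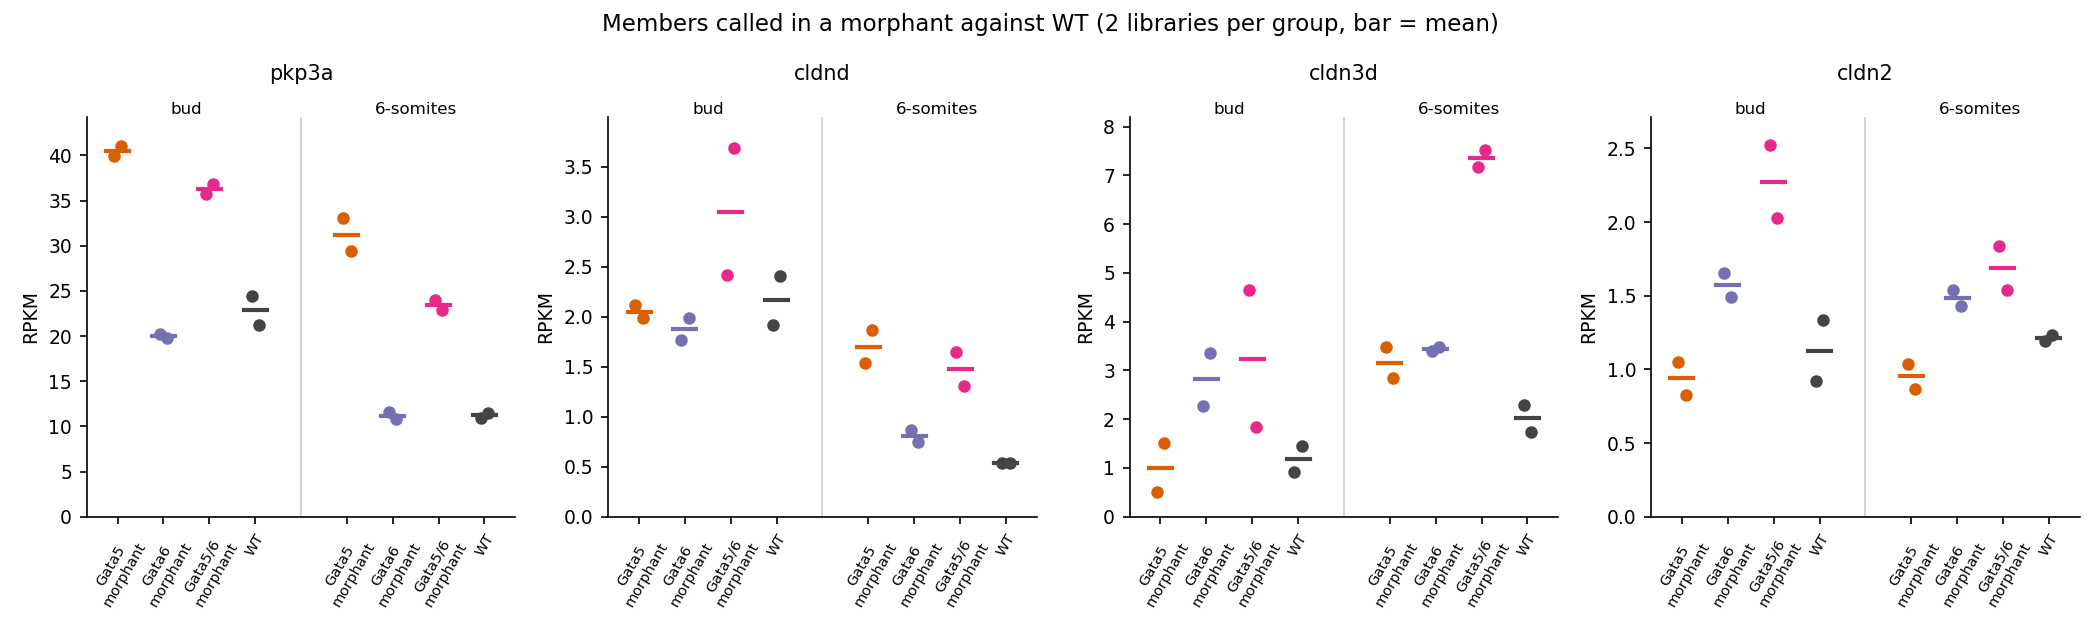
RPKM of pkp3a, cldnd, cldn3d and cldn2 in each library (points) with the group mean (bar), by genotype at bud and 6-somites. At 6-somites pkp3a reached 29.4 to 33.0 RPKM in Gata5 morphants, 22.9 to 23.9 RPKM in Gata5/6 morphants, and 10.8 to 11.6 RPKM in Gata6 morphants, against 10.96 to 11.52 RPKM in WT.

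Gata6 morphants had no called member at either stage over the 16 libraries. At an unadjusted p under 0.05, 13 members differed at bud, 8 higher and 5 lower, where 9.77% of all genes were higher and 9.6% lower. At 6-somites 4 differed, 1 higher and 3 lower, where 3.84% of all genes were higher and 5.24% lower. At bud the smallest adjusted p belonged to cldna, at 7.39 and 4.49 RPKM in Gata6 morphants against 3.13 and 1.08 RPKM in WT, a log2 change of 1.21 ± 0.28 (limma adjusted p 0.0565). It was called in 6 of 12 alternatives, among them median-of-ratios scaling, the 5 RPKM filter and limma-voom, with adjusted p from 0.0148 to 0.446. Krt17 stood at 426 and 365 RPKM in Gata6 morphants against 311 and 272 RPKM in WT at bud (log2 change 0.44, adjusted p 0.0726). Cldnk stood at 1.34 and 1.25 RPKM in Gata6 morphants against 1.99 and 4.005 RPKM in WT at bud (log2 change -0.75, adjusted p 0.115). These bud calls moved with single libraries. Without Gata6 bud 1 cldn12, cldn30, epcam and oclnb were called lower, and without Gata6 bud 2 cldna and krt17 were called higher. Without WT bud 1 cldna and cldni were called higher and cldnk lower. In each of these fits more of all genes were called than over the 16 libraries.

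At 6-somites the smallest adjusted p in Gata6 morphants belonged to tjp1b, the tight junction scaffold. It stood at 18.3 and 16.2 RPKM in Gata6 morphants and at 20.1 and 18.3 RPKM in Gata5/6 morphants, against 35.3 and 28.6 RPKM in WT. The pools of both morphants lay below both WT pools. In both, the pools of most members did not overlap with WT. The log2 change was -0.85 ± 0.20 in Gata6 morphants (limma adjusted p 0.111) and -0.70 ± 0.20 in Gata5/6 morphants (adjusted p 0.0771). Neither was called over the 16 libraries, and with the spread of the 6-somites libraries alone both were (adjusted p 0.00862 and 0.00587). In Gata6 morphants tjp1b was called in 2 of 12 alternatives. No removal of one library gave the 6-somites call in either morphant. At bud tjp1b stood at 13.1 and 11.2 RPKM in Gata6 morphants, against 19.2 and 16.9 RPKM in WT. In Gata5/6 morphants it stood at 8.37 and 13.5 RPKM at bud. Neither bud difference was called over the 16 libraries, and the Gata5/6 result changed without Gata5/6 bud 2.

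With the spread of the 6-somites libraries alone, more members passed at that stage: 10 in Gata5, 5 in Gata6 and 14 in Gata5/6 morphants, where 8.46%, 6.28% and 20.2% of all genes were called. Besides the genes above, the lower ones in Gata5/6 morphants were cldni (-1.03), cldn3c (-0.55), cldn5 (-0.42), tjp1, krt222 and pkp4, as log2 changes. The higher ones were dsc2l (0.68), krt97 (0.59) and krt99 (0.27). Krt1-19e (1.08) was also called higher there, at 2.47 and 0.902 RPKM. The filter kept it through Gata5/6 libraries, so its call supports nothing. In Gata5 morphants, besides pkp3a and cldnd, dsc2l (0.52), krt97 (0.48), cldn3d (0.46) and cldnf (0.34) were higher. Cldni (-0.67), cldn30 (-0.42) and cldn7b (-0.31) were lower there. Krt93 (0.57) was also called higher, but it reached 1 RPKM in Gata5 morphants only, so its call supports nothing. In Gata6 morphants, besides tjp1b, cldn3d (0.56) was higher and cldni (-0.47) and cldn5 (-0.41) lower. Krt18b (-0.54) was also called lower, but it passed the filter at 6-somites only, so its call supports nothing. Cldni stood at 19.0 and 23.2 RPKM in Gata5/6 morphants and at 26.5 and 28.0 RPKM in Gata5 morphants, against 43.4 and 44.1 RPKM in WT at 6-somites. Krt97 stood at 209 and 179 RPKM in Gata5/6 morphants and at 179 and 181 RPKM in Gata5 morphants, against 127 and 129 RPKM in WT. The groups did not overlap with WT for either gene, which was so for most members in both comparisons. Over the 16 libraries neither was called in Gata5/6 morphants (adjusted p 0.133 for cldni and 0.0771 for krt97). Array weights per stage, which also give each stage its own spread, called 9, 4 and 17 members at 6-somites, where 10.7%, 7.92% and 21.7% of all genes were called. At bud a spread of that stage alone called 0 members in each morphant, where 0.00678%, 0.0% and 0.0407% of all genes were called in Gata5, Gata6 and Gata5/6 morphants. Array weights likewise called 0 in each, where 0.0271%, 0.115% and 0.285% of all genes were called.

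**Figure D5:**
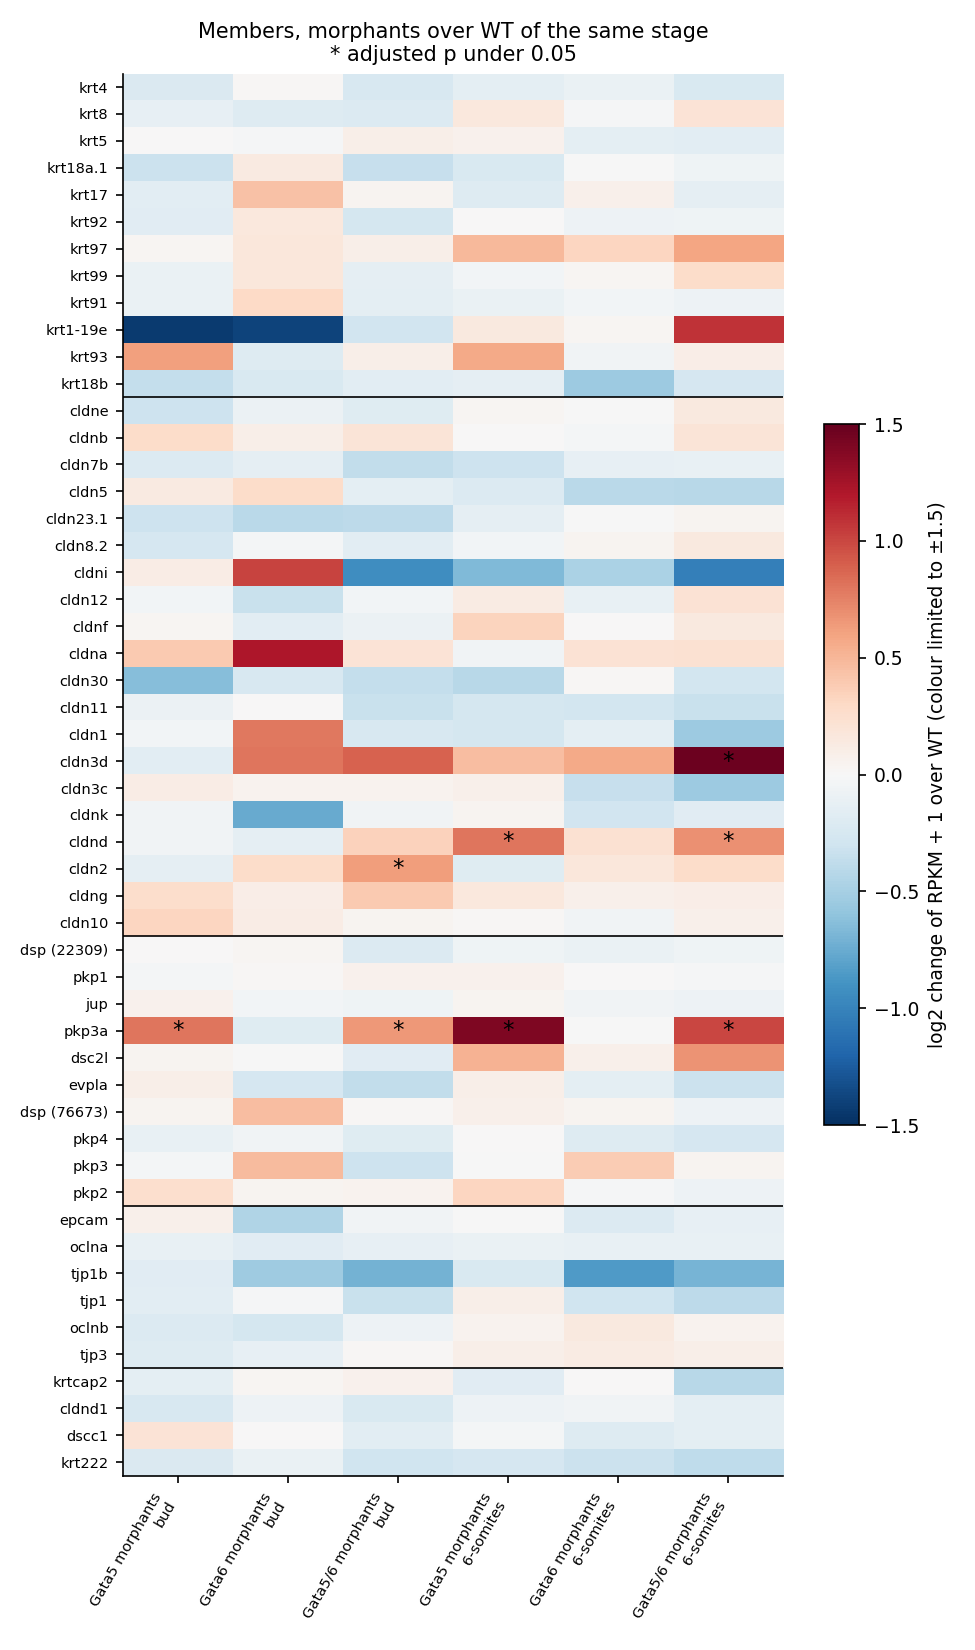
Log2 change of RPKM + 1 against WT of the same stage for the members shown (rows, grouped by role) in Gata5, Gata6 and Gata5/6 morphants at bud and 6-somites (columns), from limma on 2 libraries per group; asterisks mark an adjusted p under 0.05 and colours stop at 1.5 in either direction. Pkp3a carries 4 of the 8 asterisks. The dark cells of krt1-19e at bud come from one high WT library, 8.41 RPKM in WT bud 2 against 0.144 RPKM in WT bud 1.

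Markers of the enveloping layer that are not members were measured beside these genes. Their list held 17 measured genes, with a summed level at 6-somites of 527.5 to 547.6 RPKM in Gata5 morphants, 535.2 to 550.2 RPKM in Gata6 morphants and 593.9 to 625.2 RPKM in Gata5/6 morphants, against 553.4 to 555.2 RPKM in WT. Called against WT were ca2 in Gata6 morphants at bud, ca2 and elf3 in Gata5/6 morphants at bud, and ca2 and icn in Gata5/6 morphants at 6-somites, all higher. The 3 bud calls were lost in a fit of that stage alone (adjusted p 0.257 to 0.324), and both 6-somites calls held. Of 12 measured genes of the basal epidermis and non-neural ectoderm list, 0 were called against WT in any of the 6 comparisons by limma. Their summed level at bud was 143.0 to 186.2 RPKM in Gata5 morphants, 204.1 to 216.6 RPKM in Gata6 morphants and 158.4 to 165.7 RPKM in Gata5/6 morphants, against 223.6 to 232.7 RPKM in WT. The summed level of the basal list at 6-somites was 174.2 to 187.8 RPKM in Gata5 morphants and 176.9 to 178.0 RPKM in Gata5/6 morphants. It was 199.3 to 211.6 RPKM in Gata6 morphants, against 205.9 to 206.9 RPKM in WT. The part of these lists in the members' differences was not tested.

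Of 31 measured genes in a list of other junction and polarity genes, 0 were called in Gata5 or Gata6 morphants at either stage by limma. In Gata5/6 morphants 1 was higher (lad1, ladinin) and 1 lower (prkcz, an atypical protein kinase C) at bud. At 6-somites 1 was higher (lad1) and 2 lower (jam2b, a junctional adhesion molecule, and llgl2, a basolateral polarity protein). Lad1 had a log2 change of 0.93 ± 0.17 at bud (limma adjusted p 0.0244) and of 0.73 ± 0.17 at 6-somites (adjusted p 0.0415). In a fit of the bud stage alone lad1 and prkcz were not called (adjusted p 0.243 and 0.217), and the 3 calls at 6-somites held in a fit of that stage alone. In WT development 11 of the 31 were higher and 6 lower at 6-somites, lad1 (-1.18) and jam2b (1.54) among them.

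Several members are neighbours in the genome. In the gene order of the RefSeq annotation of assembly GRCz12tu, used for order only, cldne, cldnf and cldna are adjacent, and cldn3c, cldn3d, cldnb, cldnd and cldn30 lie with at most 1 gene between neighbours. Neighbours did not all share a direction: in WT development cldne (-0.63) and cldnf (-0.39) fell while cldna (2.34) rose. Near cldn3c, cldnd (-1.03) and cldn30 (-0.53) fell, and cldn3d and cldnb were not called (limma adjusted p 0.272 and 0.284). The rise of cldn3c (1.47) supports nothing, as the filter kept it through 6-somites libraries. Krt5, krt8 and krt18a.1 are also adjacent, and none of them was called against WT over the 16 libraries. Keratins and claudins of these arrays are similar in sequence, and reads of 36 bases from similar copies may be split or lost between them by the authors' counting, whose method and strand setting the labels do not state. The symbol dsp names 2 members, and cldn5, cldn11 and jup each name 1 member and 1 identifier below the filter.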

How the data were processed

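The deposited files give 1 RPKM value per gene and library, made by the authors; the labels name polyA RNA, single reads of 36 bases and, per the submitters' processing notes, genome build Zv9. No aligner, annotation or strand setting is named there. RPKM steps gave whole reads for 27254 of 27257 identifiers (99.99%; each value within 0.02 of a whole read, up to 0.2 at high read numbers, or within the rounding of the values), and with them each library's depth. Genes with at least 1 RPKM in 2 libraries were tested with limma 3.58.1 in R 4.3.3 on log2(RPKM + 1), all 16 libraries, 1 mean per group, 8 residual degrees of freedom and intensity trend, with Benjamini-Hochberg adjustment over all genes tested and a threshold of 0.05, two-sided, in 13 comparisons. Fold changes on this scale understate those of low genes. Identifiers were matched in lower case to symbols of the given name table. The members and the gene lists were chosen with earlier results of these data known. Named genes are the called members, up to 8 in each direction per comparison (where none was called, the 3 with the smallest p), the 10 of highest mean RPKM and a fixed set of epithelial genes; members called under a stage's own spread and krt1-19e were added after their values were seen. Some member values are not reported here. The fit was tested on simulated data with a spread of its own for each stage, where it made too many false calls at bud. Array weights per stage, a fit of each stage alone, a replicate block, limma-voom on the recovered reads, other scaling, filters and pseudocount, and removal of each library were alternatives.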

Additional observations from a re-analysis of the deposited data

How the results depend on the processing

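Numbers of called members are those out of 54. Array weights per stage gave 0 at bud for Gata5 and 0 for Gata5/6 morphants, and 9, 4 and 17 for Gata5, Gata6 and Gata5/6 morphants at 6-somites; a fit of each stage alone gave 0 and 0 at bud and 10, 5 and 14 at 6-somites. Both let the bud libraries vary more. At 6-somites the 9 and 10 for Gata5 morphants include krt93, the 4 and 5 for Gata6 morphants krt18b, and the 14 for Gata5/6 morphants krt1-19e. Median-of-ratios scaling gave 2 for Gata5, krt93 among them, and 1 for Gata6 morphants at bud. The filter kept these 3 keratins through the libraries where they are high, so their calls support nothing. A pseudocount of 0.1, no filter, a filter at 5 RPKM and limma-voom on recovered reads each gave 1 for Gata5/6 morphants at bud, the filter at 5 RPKM and limma-voom gave 1 for Gata6 morphants at bud, and no filter, the filter at 5 RPKM and limma-voom gave 1 for Gata5 morphants at 6-somites. The filter at 5 RPKM gave 13 for development of Gata5 morphants, as fewer genes were tested. The cause of the other shifts was not tested. With one library left out, counts lay at 0 to 1 (Gata5), 0 to 4 (Gata6) and 0 to 4 (Gata5/6) at bud, at 1 to 1, 0 to 0 and 1 to 1 at 6-somites, at 14 to 28 (WT), 7 to 18 (Gata5), 5 to 21 (Gata6) and 8 to 16 (Gata5/6) for development, and at 0 to 0, 0 to 1 and 0 to 0 for the interactions. Leaving out WT bud 2 and Gata6 bud 1, the extreme bud libraries, an alternative chosen after seeing the data, gave 3 for Gata6 morphants at bud, all lower (cldnb, krt8 and oclnb), 23 for their development and 1 (cldnb) for the Gata6 interaction. That fit leaves 1 library each of WT and Gata6 morphants at bud. Its counts over all genes are not given here, so its calls support nothing about the members in particular. Deviations of libraries with the same replicate number correlated at 0.189 to 0.557 at bud and 0.23 to 0.533 at 6-somites. The labels give only 2 numbers and no shared source, so libraries of the same number are not taken as pairs. The replicate block gave 2 (cldna and krt17) for Gata6 morphants at bud and moved no other count by over 1.5 times. For the 78 pairs of gene and comparison named by the rule on called or smallest-p members, no direction reversed: 811 values under alternatives kept their side of the threshold, 110 lost a call and 15 gained one. Limma-voom on recovered reads called 73 to 556 genes overall in the Gata5 and Gata5/6 comparisons at 6-somites. Depth limits cldnd, at 12 to 78 reads per library.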

Other observations

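Markers of tissues below the surface epithelium were measured in the same libraries. Of 13 measured genes of the yolk syncytial layer list, a list that includes gata5 itself, 4 were higher and 1 lower in Gata5/6 morphants at bud and 6 higher and 2 lower at 6-somites. In a fit of the bud stage alone gata5 was the only one of these bud calls to hold, and all 8 calls at 6-somites held in a fit of that stage alone. Fabp2, an intestinal fatty acid binding protein, had a log2 change of -4.07 and apoa4b.1, an apolipoprotein, one of -1.72 in Gata5/6 morphants at 6-somites. The 6 higher there were slc26a1 (2.38), gata5 (2.02), apoc2 (1.15), mttp (1.02), mxtx1 (0.85) and creb3l3l (0.85). The median log2 change over the 13 genes was 0.48. In Gata5 morphants 2 were higher at bud, both lost in a fit of that stage alone, and 3 at 6-somites, and in Gata6 morphants 0 were called at either stage by limma. The summed level of the list at 6-somites was 2607 to 2844 RPKM in Gata5 morphants, 2821 to 3025 RPKM in Gata6 morphants and 1786 to 1850 RPKM in Gata5/6 morphants, against 2844 to 2848 RPKM in WT.

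Of 6 measured genes of the pronephros list, cdh17, a cadherin of the kidney tubule, was higher in Gata6 and Gata5/6 morphants at both stages, with log2 changes of 1.33 and 1.71 at 6-somites. Mecom was higher in Gata6 and Gata5/6 morphants at bud, and osr1 was lower in Gata5 morphants at 6-somites. In a fit of the bud stage alone cdh17 was called in Gata5/6 morphants (adjusted p 0.046) and not in Gata6 morphants (adjusted p 0.174), and mecom in neither (adjusted p 0.374 in Gata6 and 0.0752 in Gata5/6 morphants). The notochord list (9 measured) had col8a1a higher and noto lower in Gata6 morphants at bud. The neural plate list (11 measured) had her4.1 lower in Gata6 morphants and sox19b and zic5 higher in Gata5/6 morphants at bud. These notochord and neural plate calls were all lost in a fit of the bud stage alone (adjusted p 0.324 to 0.514). The hatching gland list (10 measured) had 0 genes called by limma in the 6 comparisons against WT.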
